A study of Mus musculus with 2 samples.

Results

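The cells described here are G422 glioma cells with high levels of genes used in mitosis. They were taken as the 10% of tumour-like cells with the highest score over 8 genes: Cenpf, Ube2c, Cenpe, Plk1, Aurka, Ccnb1, Hmmr and Kif23. The score was the mean of ln(1 + UMIs per 10,000) of these genes in a cell, where a UMI (unique molecular identifier) marks 1 captured RNA molecule. It picked 510 of 5103 tumour-like cells, 380 of 3714 in the control library and 130 of 1389 in the LTS library. They are called mitotic cells below, as a name for the upper range of this score; G2 cells carry many of the same transcripts, and whether a cell had entered mitosis was not tested.

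Droplet single-cell RNA sequencing was done on 2 libraries of brain tumour tissue from Kunming mice carrying intracranial G422 tumours, from a mouse glioma cell line. Untreated mice gave the control library, with tissue taken 7 days after tumour cells were injected. The LTS library came from treated mice that lived for more than 100 days and were then given tumour cells again in the opposite side of the brain. Its tissue is also labelled day 7, and the sources used here do not settle which injection that day counts from. The treatment is labelled as a combination with its agents not named, and the number of mice in each library is not given. In both groups cells were taken from the layer between 70% and 37% Percoll, which the labels describe as holding immune cells, so the tumour cells seen are those that settled there. With 1 library a group there is no replicate and no test between groups. Intervals below are exact 95% intervals, except the range given for the ratio of shares, and all cover counting error only.

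Entry into mitosis is driven by cyclin B bound to the kinase Cdk1, with the Polo-like and Aurora kinases acting on centrosomes, spindle and chromosomes. Kinetochores join chromosomes to spindle microtubules, and the spindle checkpoint holds back the anaphase-promoting complex until all are attached. Transcripts of these proteins rise in G2, after the genes of DNA replication have passed their peak in S phase. Many of the late genes carry a cell cycle homology region (CHR) and CCAAT boxes near their start, bound by the DREAM and B-Myb complexes and by NF-Y, while many S phase genes carry E2F sites.

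Promoters of 8 genes are shown because they hold these elements in different combinations. Each line gives the 150 bases before the start of the gene, 5′ to 3′ on the gene's strand, from RefSeq on GRCm38.p6. All distances count from the RefSeq start, which differs from the GENCODE positions given below for some genes. The GENCODE starts of Ube2c (164769898) and Ccnb1 (100786570) lie within the printed stretches. Capitals mark the CHR, searched as TTTGAA and as TTCGAA, and the CCAAT box, searched as CCAAT. They also mark E2F-type letters, searched as TTCCCGC, then as TTGGCGC, then as TTCGCGC and last as TTGCCGC. Each was searched on both strands, and joined capitals are overlapping matches. The first 6 genes were higher in mitotic cells and the last 2, Mcm6 and Cdc6, were lower.
Ube2c, chr2:164769779-164769928, plus strand: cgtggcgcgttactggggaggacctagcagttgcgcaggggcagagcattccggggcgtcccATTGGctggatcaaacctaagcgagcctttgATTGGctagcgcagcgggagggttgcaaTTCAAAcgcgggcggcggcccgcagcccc
Cdc20, chr4:118437344-118437493, minus strand: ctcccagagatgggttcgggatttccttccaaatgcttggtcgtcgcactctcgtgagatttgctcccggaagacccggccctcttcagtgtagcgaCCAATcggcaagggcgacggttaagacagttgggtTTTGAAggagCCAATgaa
Gas2l3, chr10:89443968-89444117, minus strand: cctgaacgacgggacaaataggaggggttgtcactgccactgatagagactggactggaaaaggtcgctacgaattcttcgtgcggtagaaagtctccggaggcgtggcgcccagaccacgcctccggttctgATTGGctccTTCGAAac
Cdk1, chr10:69352913-69353062, minus strand: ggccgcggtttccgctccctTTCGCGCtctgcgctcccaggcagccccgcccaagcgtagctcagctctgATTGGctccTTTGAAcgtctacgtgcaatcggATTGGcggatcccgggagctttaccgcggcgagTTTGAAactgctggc
Hmmr, chr11:40733438-40733587, minus strand: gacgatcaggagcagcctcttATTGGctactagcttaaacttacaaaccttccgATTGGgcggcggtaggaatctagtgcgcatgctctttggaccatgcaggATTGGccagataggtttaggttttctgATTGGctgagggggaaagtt
Ccnb1, chr13:100786487-100786636, minus strand: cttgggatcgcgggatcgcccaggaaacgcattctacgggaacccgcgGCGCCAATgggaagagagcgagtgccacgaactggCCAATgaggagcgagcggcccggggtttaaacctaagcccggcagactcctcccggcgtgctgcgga
Mcm6, chr1:128359706-128359855, minus strand: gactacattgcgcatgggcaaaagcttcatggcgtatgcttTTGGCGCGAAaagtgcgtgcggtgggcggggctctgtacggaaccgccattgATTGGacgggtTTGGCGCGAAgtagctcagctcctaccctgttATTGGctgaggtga
Cdc6, chr11:98908001-98908150, plus strand: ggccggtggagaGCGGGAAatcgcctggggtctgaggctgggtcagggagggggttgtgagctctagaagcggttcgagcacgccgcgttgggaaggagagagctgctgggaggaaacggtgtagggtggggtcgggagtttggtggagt

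The Cdc20 promoter held the CHR letters 18 bases before the start, between 2 CCAAT boxes. Gas2l3 had a CCAAT box and a CHR side by side, with first bases 17 and 8 bases before the start. Cdk1 held 2 CHR matches and 2 CCAAT boxes in the printed stretch, and an E2F-type match 130 bases before the start. Hmmr had 4 CCAAT boxes and no CHR letters in that stretch, and its CHR match lay just after the start. Ccnb1 had 2 CCAAT boxes and no CHR letters in the window, and the first box overlapped E2F-type letters. Mcm6 held overlapping pairs of E2F-type letters 109 and 46 bases before the start, and Cdc6 held GCGGGAA, the E2F-type letters read on the other strand.

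Over the window from 250 bases before to 50 after the start (300 bases), CHR letters were in 21.7% of 27025 promoters and in 16.8% of the 5228 matched genes with enough UMIs for comparison. Of the 109 genes at least 2-fold higher in mitotic cells of both libraries, 92 had a promoter entry, and 65 of these (70.7%) held CHR letters. A CHR together with a CCAAT box was in 9.65% of all promoters, 8.51% of the compared genes and 59.8% of the higher genes. E2F-type letters were in 22.5% of the compared genes, 19.6% of the higher genes and 62.1% of 29 DNA replication genes, where CHR letters were in 13.8%. These genes were chosen by their expression, so the shares describe the set, and a match is a run of letters and not a shown binding site.

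The score had no gap at the threshold. The lowest mitotic cell scored 1.13 and so did the highest cell left out (1.133 and 1.132), with medians of 1.32 in mitotic cells and 0.308 in the others and a highest value of 2.11. There were 140 mitotic cells within 0.1 above the threshold and 183 others within 0.1 below it. The 50 cells just inside carried 20.5 summed UMIs per 10,000 of the 8 genes on average, and the 50 just outside 19.5. Within these 50 and 50, Cenpf averaged 4.46 and 3.84 UMIs per 10,000, and Aurka 1.09 and 1.18. The cells are therefore the top of a continuous range.

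Mitotic cells made up 10.2% (9.28 to 11.3%) of tumour-like cells in the control library and 9.36% (7.88 to 11%) in the LTS library. Over both libraries together the share is 10% by construction, so a higher share in 1 library means a lower share in the other. The intervals treat the 2 shares as separate and do not take this into account. The LTS share was 0.915 times the control share, with 0.70 to 1.19 from the bounds of both intervals, which covers counting of cells only and, with 1 library a group, does not compare the conditions. Among cells of at least 20,000 UMIs the shares were 11.7% and 7.55%, a ratio of 0.647. This minimum kept 1842 of 3714 control and 1258 of 1389 LTS tumour-like cells. With the limit on endothelial UMIs scaled to each cell's depth, the shares were 10% and 9.98%, a ratio of 0.998. The ratio was 0.823 with the top 5% of scores and, by construction, near 1 with the top 10% within each library. The remaining alternatives lay between these. No cell barcode was shared by mitotic cells of the 2 libraries, and 1 was shared by tumour-like cells.

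Mitotic cells held more RNA molecules. Their median was 26133.5 UMIs per cell against 19444.5 in the other control cells (1.34 times) and 50225.5 against 36025 in the LTS library (1.39 times). The ranges overlapped, from 10350 to 61856 in mitotic and 10018 to 61710 in other control cells. More than 2 times the other cells' median was reached by 8.95% of mitotic and 1.89% of other control cells, and by 12.3% and 2.38% in the LTS library. Among the 75 control and 28 LTS cells above the 98th percentile of UMIs, 29 and 10 were mitotic. No doublet caller was run, and the part of doublets in these deep cells was not tested. After thinning each cell to 10,000 UMIs, the median number of genes was 3442 in mitotic and 3370 in other control cells, and 3375 and 3295 in the LTS library. Mitochondrially encoded UMIs were 5.05% and 5.77% at the median in control cells, and 5.32% and 5.74% in LTS cells.

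**Figure D1:**
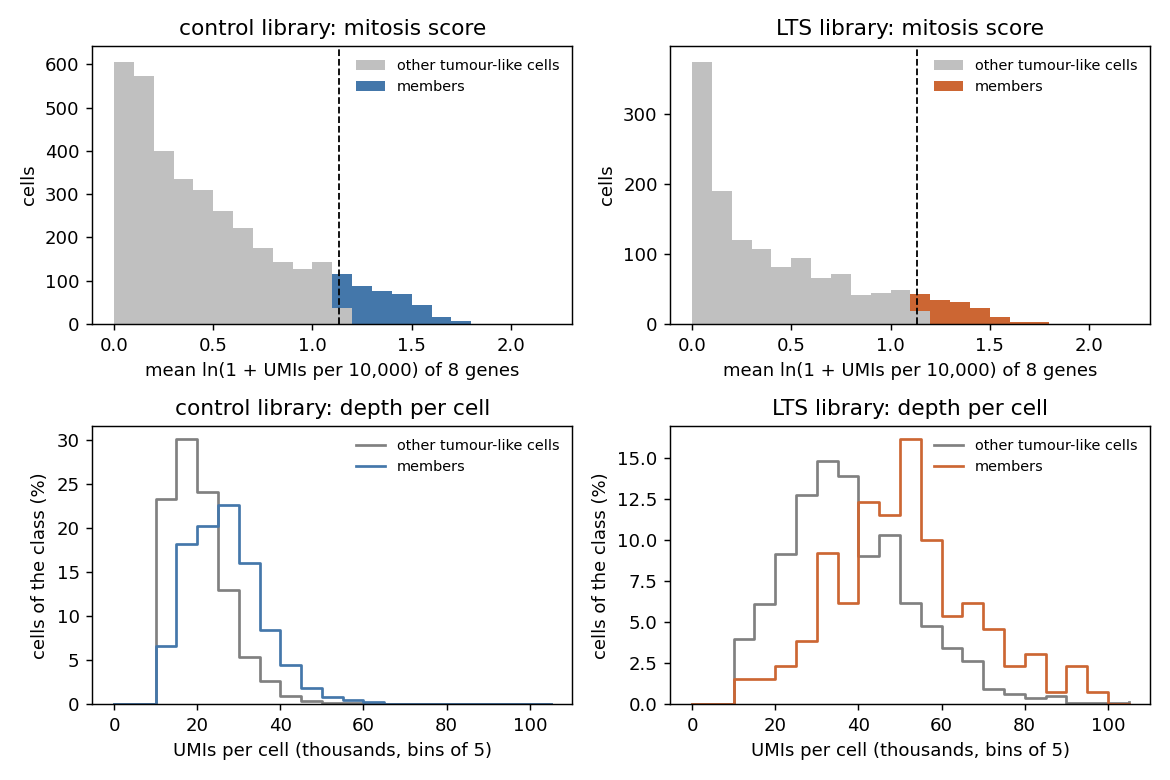
Upper panels show the number of tumour-like cells by score in bins of 0.1, with mitotic cells (labelled members) in colour and the threshold as a dashed line, for the control (left) and LTS library (right). Lower panels show the percent of cells of each class by UMIs per cell, where the mitotic cells lie to the right of the others (medians 26133.5 and 19444.5 in control, 50225.5 and 36025 in LTS).

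As to the label, Y-linked transcripts (4 genes) summed to 0.588 CPM (UMI counts scaled to the same total in each class) in control and 0.754 CPM in LTS mitotic cells. In barcodes with Ptprc, the leukocyte marker CD45, the same genes summed to 76.4 and 115.7 CPM (686 and 1058 barcodes). Of 10 glial genes, Nes (nestin) was at 122 and 97.8 CPM in control and LTS mitotic cells, Pdgfra at 53.9 and 66.2 CPM and Sox2 at 28.6 and 21.1 CPM. The glial factors Olig1, Olig2 and Sox10 were at 0 in the mitotic cells of both libraries, and the astrocyte filament Gfap was at 0.588 and 0.452 CPM. Markers of T and NK cells (8 genes) summed to 0.980 and 2.56 CPM, with Ncr1 and Klrb1c at 0 in both libraries, and 5 neutrophil markers to 1.37 and 1.21 CPM. Microglia markers (9 genes) summed to 126 and 70.5 CPM, 7 monocyte markers (8 gene entries, since Itgam is listed under 2 identifiers) to 32.8 and 20.2 CPM and 6 endothelial markers to 14.2 and 7.23 CPM, against 1252 and 1620, 817 and 968, and 48.0 and 63.6 CPM in barcodes with 1 to 100 UMIs, whose RNA is mostly free RNA. The choice of cells itself limited the UMIs of Ptprc, C1q and endothelial genes, more strictly in the deeper LTS cells. Low sums of leukocyte, microglia and endothelial markers are therefore a description and no separate check of the label.

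Markers of astrocytes (5 genes) summed to 243 and 315 CPM in mitotic cells, 262 and 307 CPM in the other tumour-like cells and 174 and 239 CPM in barcodes with 1 to 100 UMIs, with Aqp4 at 0 in the mitotic cells of both libraries. Of these sums in mitotic cells, 241 and 312 CPM were Gja1, the gap junction protein connexin 43. Markers of oligodendrocytes (6 genes) summed to 15.6 and 10.9 CPM, of neurons (6) to 6.27 and 4.52 CPM, of red cells (5) to 4.12 and 3.62 CPM and of B cells (4) to 0.980 and 0.904 CPM. The part of these cell types in the results was not tested.

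The 2 libraries held 165796852 and 149413534 UMIs, with 59231 control and 8781 LTS barcodes of 500 or more UMIs. A tumour-like cell had at least 10,000 UMIs, at most 15% mitochondrial UMIs and at least 20 Vim UMIs, with few UMIs of Ptprc, of complement C1q genes and of endothelial genes. The upper limits on Ptprc, C1q and endothelial genes are absolute numbers of UMIs, so they are stricter for deeper cells. The endothelial limit alone (at most 2 UMIs of Cldn5, Flt1 and Pecam1) left out 23.6% of 4861 control and 42.8% of 2429 LTS barcodes that met every other condition.

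Each of the 8 scoring genes was 4.10 to 5.76 times higher in mitotic cells than in the other tumour-like cells, which follows from the choice of cells and is given as a description. Cenpf, a protein of the outer kinetochore (ENSMUSG00000026605, chr1:189640606-189688086, GRCm38), was at 642 CPM in control mitotic cells and 118 CPM in the others, and at 543 and 94.3 CPM in the LTS library. Ube2c, the ubiquitin-conjugating enzyme of the anaphase-promoting complex (ENSMUSG00000001403, chr2:164769898-164778822), was at 657 and 137 CPM in control and 752 and 134 CPM in LTS. Ccnb1, cyclin B1 (ENSMUSG00000041431, chr13:100778650-100786570), was at 284 and 67.3 CPM in control and 310 and 60.7 CPM in LTS.

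The kinases Plk1 and Aurka had lower counts in each cell. Plk1 (chr7:122159439-122169873), which acts from centrosome maturation to cytokinesis, was at 184 and 42.8 CPM in control and 180 and 34.7 CPM in LTS. Aurka (chr2:172356190-172370535), which builds the spindle poles, was at 138 and 31.1 CPM in control and 147 and 27.0 CPM in LTS. Aurka had no UMI in 16 and Plk1 none in 3 of the 380 control mitotic cells, which held 1404 and 1877 UMIs of them in all. At such low counts, whether cells without a UMI differ from the rest was not tested. All 130 LTS mitotic cells had a UMI of both. The LTS cells were also deeper. Among the other control cells, 2118 of 3334 had no Aurka UMI.

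The remaining scoring genes were motors and a spindle protein. Cenpe, a kinetochore motor (chr3:135212537-135273611), was at 481 and 111 CPM in control and 384 and 92.4 CPM in LTS. Hmmr, which helps to organise spindle microtubules (chr11:40701395-40733422), was at 282 and 67.6 CPM in control and 249 and 60.1 CPM in LTS. Kif23, a motor of the central spindle (chr9:61915905-61946774), was at 145 and 35.2 CPM in control and 128 and 30.3 CPM in LTS. Barcodes with 1 to 100 UMIs also held these 8 genes, at 44.4 to 218 CPM in control and 35.0 to 216 CPM in LTS, below the level of the mitotic cells for every gene. They were above the other tumour-like cells in both libraries for Ube2c, Ccnb1, Plk1, Aurka and Kif23. For Cenpf this held in LTS only, and Cenpe and Hmmr were below the other cells in both. How much of the other cells' level was free RNA was not tested.

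All further comparisons use log2 ratios of CPM after 5 CPM was added to both sides, which understates the change of low genes, over genes with at least 20 CPM in 1 of the 2 classes compared. All genes come from the cells that were scored, so no test is given, and the counts are set beside those over all genes. Genes of a list called highest or lowest below are ordered by the mean of their ratios in both libraries, among genes tested in both, unless a library is named. In the control library 110 of 6565 genes (1.68%) were at least 2-fold higher in mitotic cells and 7 (0.107%) at least 2-fold lower, around a median of 0.0045. In the LTS library 131 of 6570 (1.99%) were higher and 10 (0.152%) lower, around a median of −0.0042. In both libraries 109 of 6422 (1.7%) were higher and 5 (0.0779%) lower, and 69 of the 109 belonged to the scoring genes or to the cell cycle lists.

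**Figure D2:**
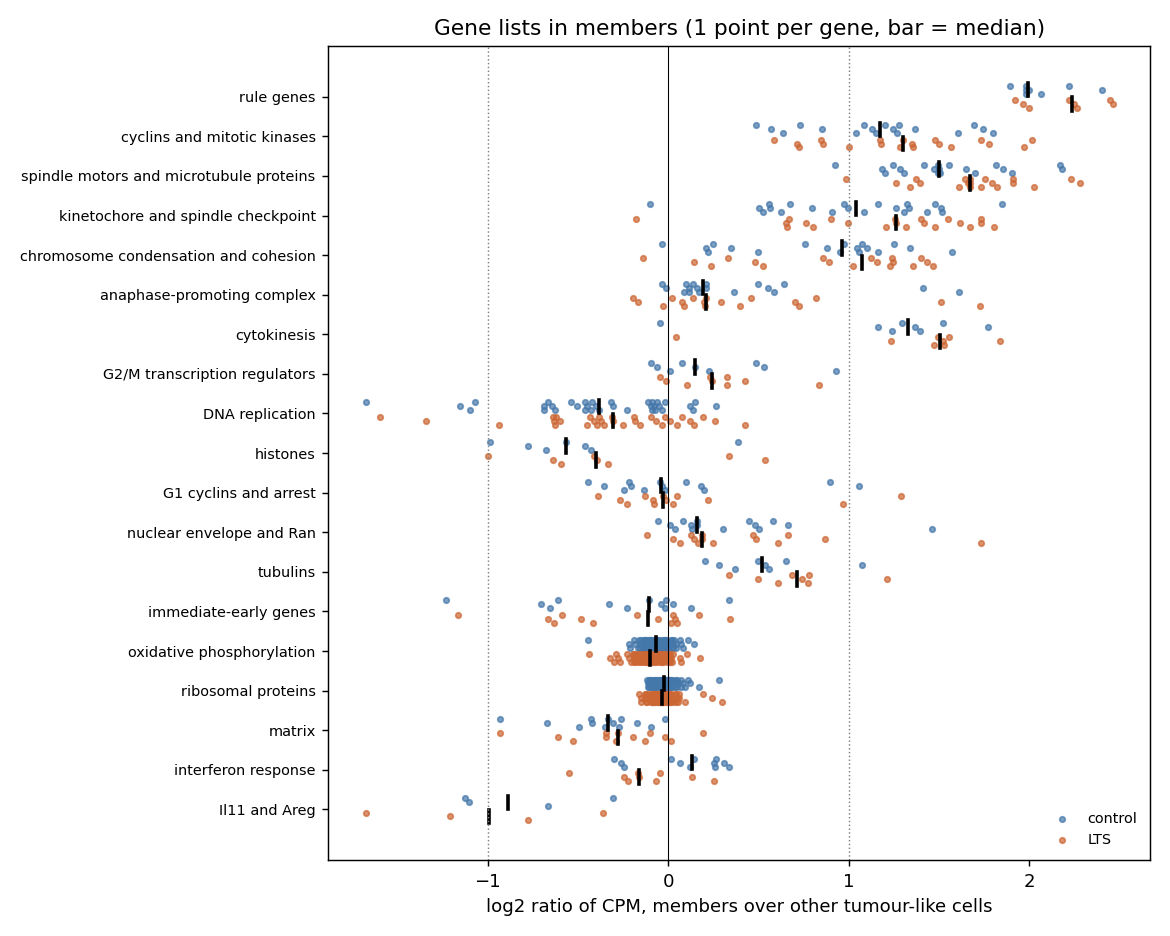
Each point is the log2 ratio of CPM of 1 gene in mitotic (members) over other tumour-like cells, in the control (blue) and LTS library (orange), grouped by list, with black bars at list medians and dotted lines at 2-fold. Spindle, cytokinesis, cyclin and kinetochore genes lie to the right (medians 1.04 to 1.67) and DNA replication, histone and matrix genes to the left (medians −0.57 to −0.28).

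Of 20 spindle motors and microtubule proteins, 19 were at least 2-fold higher in mitotic cells of both libraries, with medians of 1.50 in control and 1.67 in LTS. Aspm, which focuses spindle poles, was at 105 CPM in mitotic and 19.3 CPM in other control cells, and at 109 and 18.5 CPM in the LTS library (log2 ratios of 2.18 and 2.28). Nusap1, which binds spindle microtubules near chromosomes, was at 203 and 41.1 CPM in control and 170 and 32.4 CPM in LTS (2.17 and 2.23). The smallest ratios were those of the kinesin Kif15 (0.92 and 0.98), the gene under 2-fold, and of Spag5 (1.18 and 1.34). Cytokinesis genes followed, with 7 of 8 at least 2-fold higher in both libraries and medians of 1.33 and 1.51. Kif20b had ratios of 1.77 and 1.84 and Ect2, the activator of RhoA at the cleavage site, of 1.52 and 1.56, with Anln at 1.16 and 1.24. Rhoa itself, a GTPase used throughout the cell, had ratios of −0.05 and 0.04.

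Of the cyclins and mitotic kinases tested in both libraries, 13 of 18 were at least 2-fold higher in both, and all 18 had ratios above 0. Ccnf, which targets proteins for destruction in G2, had ratios of 1.80 and 2.01, and Cdc25b, the phosphatase that switches on Cdk1, of 1.74 and 1.97. Cdk1 itself was at 466 CPM in mitotic and 210 CPM in other control cells, and at 492 and 190 CPM in LTS, ratios of 1.13 and 1.35. The ratios of Ccnb2 were 1.15 and 1.29, those of Ccna2 1.25 and 1.48, and those of Aurkb, the kinase of the chromosomal passenger complex, 1.20 and 1.30. The smallest were Cks1b (0.49 and 0.59) and Pbk (0.57 and 0.72).

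Kinetochore and checkpoint genes were split. In both libraries 11 of 21 were at least 2-fold higher, with medians of 1.04 and 1.26. Sgol2a, a shugoshin that protects cohesion at centromeres, had ratios of 1.85 and 1.81, and the checkpoint kinase-like protein Bub1b of 1.28 and 1.50. Zwint, a kinetochore protein, was at 136 and 147 CPM in mitotic and other control cells and at 118 and 135 CPM in LTS, with ratios of −0.10 and −0.18, and Cenpm had 0.51 and 0.67. Of 18 genes of chromosome condensation and cohesion, 8 were at least 2-fold higher in both. The proliferation marker Mki67, a protein of the mitotic chromosome surface, was at 457 and 150 CPM in control and 321 and 113 CPM in LTS (1.57 and 1.47), and Top2a, which untangles sister DNA, had 1.25 and 1.40. Espl1, the protease that cuts cohesin, had 1.34 and 1.43, while Smc3, a subunit of cohesin itself, had −0.03 and −0.14 and Ncapd3 0.21 and 0.14.

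In the anaphase-promoting complex the activators were raised more than the other genes. Its 2 activators were higher, Cdc20 at 170 CPM in mitotic and 52.3 CPM in other control cells and 157 and 43.8 CPM in LTS (1.61 and 1.73), and Fzr1, which takes over after anaphase, at 79.4 and 26.8 CPM and 79.0 and 24.4 CPM (1.41 and 1.51). None of the other 16 genes reached 2-fold in either library, and the list medians were 0.19 and 0.21, with Cdc16 (−0.03 and −0.17) and Anapc4 (0.09 and −0.19) lowest. Of all 18 genes, 15 had ratios above 0 in both libraries and 2 below 0 in both. Among those above 0 was Cdc23, with 0.58 and 0.72. Among transcription regulators of G2 and M none of the 9 tested in each library reached 2-fold, and the medians were 0.15 and 0.24. Foxm1, an activator of late cell cycle genes, was highest (0.93 and 0.84), Lin54 had 0.49 and 0.32, Nfya (−0.10 and −0.04) and E2f4 (−0.06 and −0.01) were lowest, and Mybl2, the B-Myb gene, had 0.01 and 0.10.

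Over all genes tested, the share above 0 was 51.3% in control and 49% in LTS. Genes of the nuclear envelope and of the Ran system were above 0 in both libraries for 14 of 15, at medians of 0.16 and 0.19. Kpna2, an importin that holds spindle factors until Ran frees them, was the exception at 2-fold (1.46 and 1.73), Lmnb1 had 0.66 and 0.87, and Ranbp1 (−0.06 and −0.12) and Rcc1 (0.04 and 0.03) were lowest. All 8 tubulin and stathmin genes tested had ratios above 0 in both libraries, with medians of 0.52 and 0.71. Tubb4b, a beta-tubulin, was highest (1.07 and 1.21), followed by the microtubule regulator Stmn1 (0.65 and 0.78), and Tubg1 (0.20 and 0.34) and Tubb6 (0.28 and 0.50) were lowest. Tubulin genes are near-identical to each other, so reads could be split between them.

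DNA replication genes were lower as a list. Of 33 tested in both libraries, 25 had ratios below 0 in both and 3 above 0 in both, with medians of −0.38 in control (35 genes) and −0.31 in LTS (33 genes). Over all genes tested, 51.3% were above 0 in control and 49% in LTS. Ung, which removes uracil from DNA, was at 6.96 CPM in mitotic and 33.2 CPM in other control cells and at 5.12 and 25.6 CPM in LTS (−1.67 and −1.60). Cdc6, which loads the replicative helicase, was at 10.7 and 28.6 CPM in control and 6.63 and 24.5 CPM in LTS (−1.10 and −1.34). The E cyclins, which start S phase, were low too, Ccne2 at −1.15 in control (under the minimum level in LTS) and Ccne1 at −1.07 and −0.94. The helicase subunit Mcm6 was at 84.7 and 139 CPM in control and 68.3 and 109 CPM in LTS (−0.69 and −0.64). Rrm1 (0.26 and 0.43) and Tk1 (0.15 and 0.26), both used to make DNA precursors, were highest.

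These ratios compare mitotic cells with a mixture, and the order along the score was not even. When the cells of each library were split into 10 equal groups by score, the summed DNA replication genes went from 15.6 UMIs per 10,000 in the lowest group to 35.6 in the sixth and 22.4 in the highest in the control library, and from 12.4 to 33.6 and 21.1 in LTS. Histone genes peaked later, at 14.9 UMIs per 10,000 in the seventh group of control and 17.9 of LTS, and were at 6.41 and 6.4 in the highest group. At the median over cells, DNA replication genes were at 21.9 UMIs per 10,000 in mitotic and 24.2 in other control cells, but at 20.5 and 18.9 in LTS, where the median and the ratios from summed counts differ in direction. The spread narrowed, from 2.31 to 70.4 UMIs per 10,000 among other control cells against 10.1 to 38.7 among mitotic ones. Of the cells in the top 10% of each library by DNA replication genes (371 control and 139 LTS cells), none was mitotic, with exact upper bounds of 0.966% of control and 2.80% of LTS mitotic cells. The limit of 3 counts that a count of 0 allows is 0.789% and 2.31%.

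**Figure D3:**
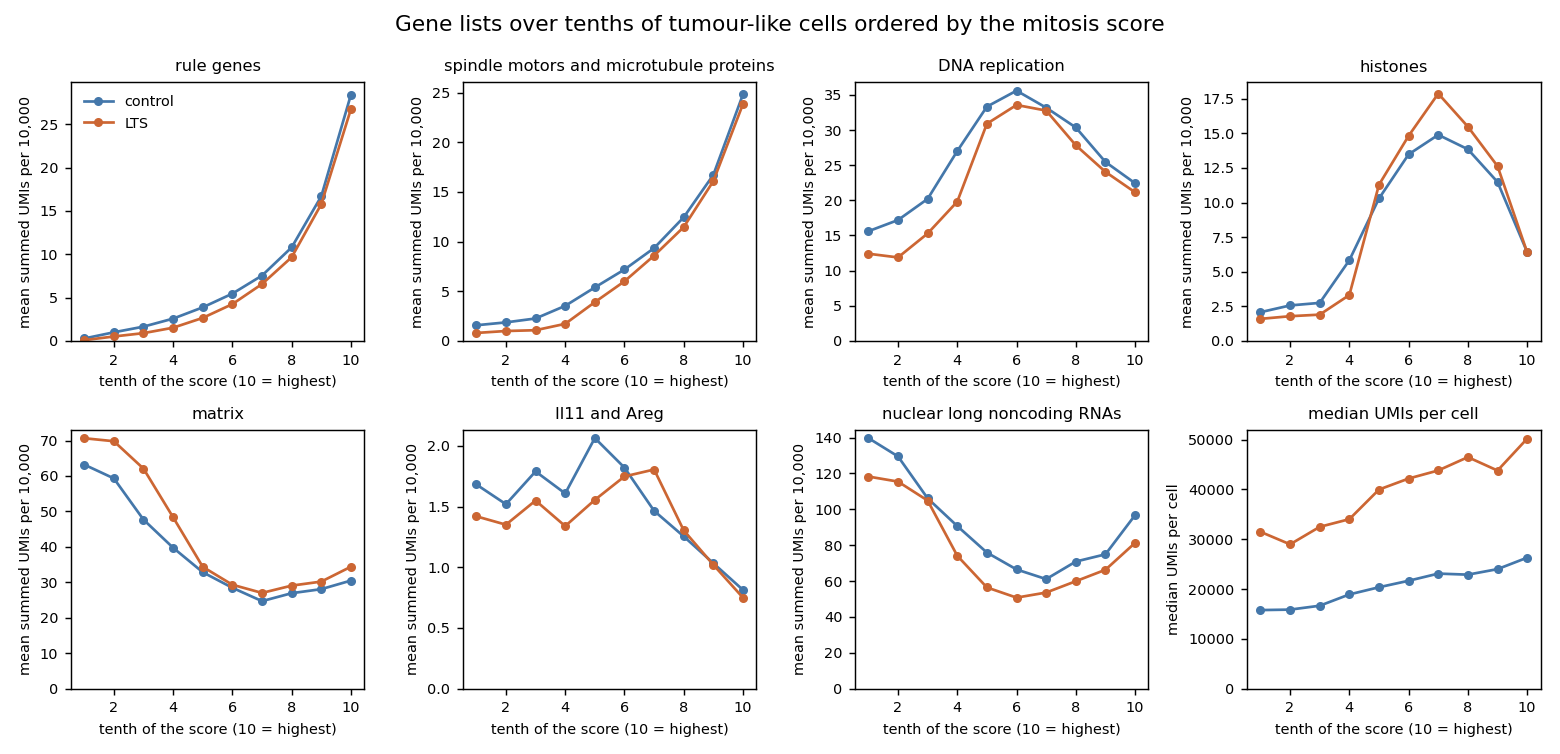
Mean summed UMIs per 10,000 of each gene list, and median UMIs per cell, in 10 equal groups of tumour-like cells of the control (blue) and LTS (orange) library ordered by the mitosis score. Scoring genes (rule genes) are highest in the last group by construction and spindle genes reach 24.8 and 23.9 there, DNA replication genes peak in the sixth group (35.6 and 33.6), histones in the seventh (14.9 and 17.9), and matrix genes are lowest in the seventh (24.7 and 27.0).

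Histone genes had list medians of −0.57 in control (7 of 68 genes tested) and −0.40 in LTS (8 tested). Hist1h2ap was at 188 CPM in mitotic and 378 CPM in other control cells and at 250 and 504 CPM in LTS (−0.98 and −1.0), and Hist1h1c had −0.78 and −0.59, while Hist1h1d had −0.43 and −0.33 and Hist1h4d 0.39 and 0.34. Hist1h4h, tested in LTS and under the minimum level in control, had 0.54 in LTS. Most histone messages lack a poly(A) tail and their genes are near-identical, so these values are uncertain. At the median over cells, histones were at 3.66 UMIs per 10,000 in mitotic and 3.21 in other control cells, and at 3.35 and 2.46 in LTS, again opposite to the summed ratios. Among mitotic cells, 19 of 380 in control (5.0%) and 9 of 130 in LTS (6.92%) were in the top 10% by histones.

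Genes of G1 and of arrest had medians of −0.04 and −0.03, with 1 at least 2-fold higher. That gene was Cdkn2c, the p18 inhibitor of the G1 kinases Cdk4 and Cdk6, at 34.2 CPM in mitotic and 13.9 CPM in other control cells and at 47.0 and 16.3 CPM in LTS (1.05 and 1.29). Cdkn1b, the p27 inhibitor, followed (0.90 and 0.97), and Gadd45a (−0.45 and −0.39) and Ccnd3 (−0.24 and −0.27) were lowest. Outside the lists Cdkn2d, the p19 inhibitor of the same family as Cdkn2c, was at 80.2 and 24.1 CPM in control and 101 and 25.4 CPM in LTS (1.55 and 1.80). Lockd, a noncoding RNA gene that lies beside Cdkn1b, was at 75.7 and 24.4 CPM and 92.7 and 25.8 CPM (1.46 and 1.67).

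Of the 109 higher genes, 40 were in neither the scoring genes nor the cell cycle lists. Gas2l3, which links microtubules to actin in dividing cells, had the largest ratios, at 57.3 CPM in mitotic and 7.85 CPM in other control cells and 85.5 and 8.55 CPM in LTS (2.28 and 2.74). These are 7.30-fold (6.48 to 8.22) and 9.99-fold (8.79 to 11.4) without the added 5 CPM. At least 1 UMI of Gas2l3 was found in 73.2% of control and 93.8% of LTS mitotic cells, at their different depths. Sapcd2 (1.98 and 2.20), Prr11 (1.81 and 1.85) and Depdc1a (1.78 and 1.89) came next. The spindle protein Dlgap5 had 1.65 and 1.66, Fam64a 1.62 and 1.91, the ubiquitin ligase G2e3 1.62 and 1.68, and Trim59 1.52 and 1.58. The kinetochore proteins Knstrn and Spdl1 had 1.45 and 1.57, and 1.31 and 1.54. Mxd3, a partner of Max, had 1.36 and 1.57, the chromatin phosphatase adaptor Cdca2 1.30 and 1.62, and Reep4, which clears membrane from mitotic chromosomes, 1.29 and 1.49.

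**Figure D4:**
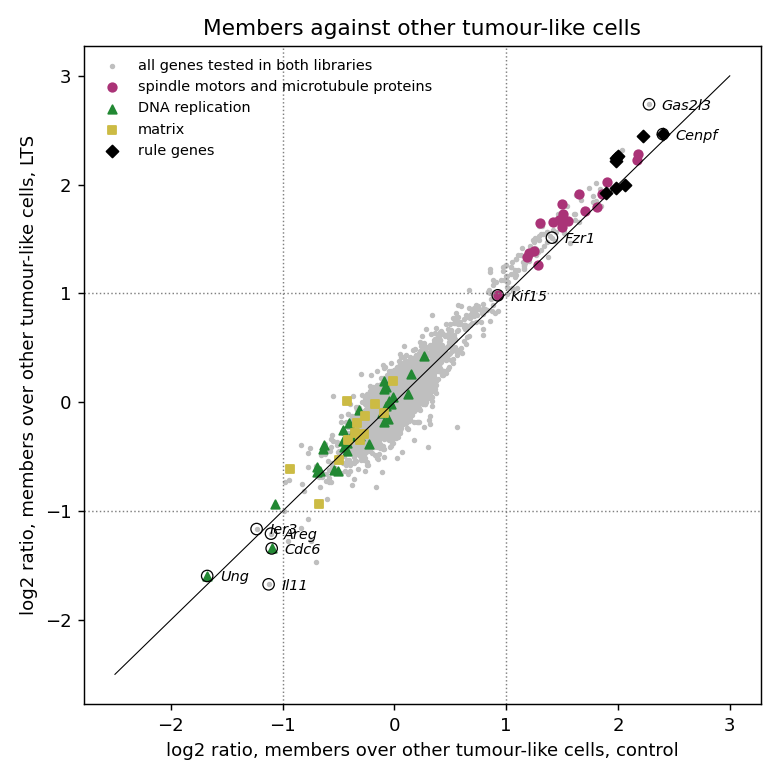
Log2 ratio of CPM in mitotic (members) over other tumour-like cells for 6422 genes, with the control library on the horizontal and the LTS library on the vertical axis, list genes in colour, circles around the labelled genes, a line of equal ratio and dotted lines at 2-fold. Gas2l3 lies above the line (2.28 and 2.74), and Ung, Il11, Cdc6, Areg and Ier3 are the 5 genes at least 2-fold lower in both.

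The 5 genes at least 2-fold lower in both libraries were Ung, Cdc6, Il11, Areg and Ier3. Il11, a cytokine of the interleukin-6 family, was at 13.3 CPM in mitotic and 35.0 CPM in other control cells and at 7.54 and 35.0 CPM in LTS (−1.13 and −1.67). Areg, a ligand of the EGF receptor, was at 8.92 and 24.9 CPM in control and 7.08 and 22.9 CPM in LTS (−1.10 and −1.21). The related ligands Hbegf (−0.66 and −0.78) and Ereg (−0.30 and −0.36) were lower by less. Il11, Areg and the other 4 genes of their list summed to medians of 0.547 UMIs per 10,000 in mitotic and 0.779 in other control cells, with no UMI in 122 and 934 cells, and 12 of the 380 mitotic cells were in the top 10%. In LTS the medians were 0.414 and 0.633, and 4 of the 130 mitotic cells were in the top 10%.

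Immediate-early genes, which respond within minutes to growth signals and stress, had medians of −0.10 and −0.11. Ier3 was at 33.7 CPM in mitotic and 86.0 CPM in other control cells and at 43.6 and 104 CPM in LTS (−1.23 and −1.17), Myc had −0.70 and −0.59, and Nfkbia (0.34 and 0.01) was highest in control and Fosb (−0.10 and 0.34) in LTS. The 15 lower genes named outside the lists had ratios from −1.27 to −0.44. The chemokine Ccl2 was at 39.2 and 80.6 CPM in control and 25.5 and 68.6 CPM in LTS (−0.95 and −1.27), with 19.5% of its LTS UMIs in 1 mitotic cell. Ptgs2, the cyclooxygenase of inflammation, had −0.84 and −1.16, Hmox1, which breaks down haem, −0.81 and −0.82 with 20.5% of its LTS UMIs in 1 cell, and the matrix protease Mmp3 −0.94 and −0.71. The phosphate transporter Slc20a1 had −0.98 and −0.73, Errfi1, an inhibitor of the EGF receptor, −0.65 and −0.65, and the neurotrophin Bdnf −0.44 and −0.44. Orc6, of the origin recognition complex, had −0.56 and −0.55 and Cdca7 −0.49 and −0.44. The rest were Ydjc, Sema6d, Zmynd19, Arl6ip6, PISD and Ace, with ratios between −0.69 and −0.44.

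Matrix genes, which the cells with low scores carried most of, were lower as a list. In control all 13 tested were below 0, with a median of −0.33, and in LTS 11 of 13 with a median of −0.28. Postn, periostin, was at 76.3 CPM in mitotic and 124 CPM in other control cells and at 76.1 and 150 CPM in LTS (−0.67 and −0.93), and Mgp, a matrix inhibitor of calcification, at 180 and 347 CPM and 256 and 394 CPM (−0.93 and −0.61). Dcn, decorin, had −0.02 and 0.20, and Col6a1 −0.17 and −0.01. Along the score the summed list was not lowest in the mitotic cells, since it was at 63.2 UMIs per 10,000 in the first group of control cells, 24.7 in the seventh and 30.5 in the last, and at 70.7, 27.0 and 34.4 in LTS. With cells of at least 20,000 UMIs only, the list medians were −0.0089 in control and −0.13 in LTS.

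Nuclear long noncoding RNAs went separate ways. Neat1, the RNA scaffold of paraspeckles, was at 283 and 508 CPM in control and 346 and 587 CPM in LTS (−0.83 and −0.75), and Kcnq1ot1 had −0.29 and −0.39. Malat1 of nuclear speckles had 0.18 and 0.25 and makes up most of the list's UMIs, so the summed list was higher in mitotic cells at the median over cells (80.0 and 66.7 UMIs per 10,000 in control, 71.8 and 57.9 in LTS). Interferon response genes had medians of 0.13 in control (12 tested) and −0.16 in LTS (9 tested), with Gbp2 at −0.25 and −0.55 and Isg15 at 0.34 and 0.13. Rtp4 (0.31 and −0.16) and Cxcl10 (−0.30 and 0.26) differed in sign between the libraries. Over the processing alternatives the LTS median ran from −0.25 to 0.24, so it has no settled direction.

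The LTS and control libraries were then compared within the mitotic cells, which describes the 2 libraries and, with 1 library a group, does not compare survivors with untreated mice. Few genes differed by 2-fold. Of 6583 genes, 1 (0.0152%) was at least 2-fold higher in LTS and 14 (0.213%) at least 2-fold lower, around a median of −0.033. Among the other tumour-like cells, 0 of 6402 were at least 2-fold higher (0%) and 14 (0.219%) lower, around −0.030. Cells of each library share it, so these values cannot be told apart from differences between the 2 libraries as such.

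The scoring genes differed little between libraries, with 5 of 8 below 0. The ratios of LTS over control in mitotic cells ran from −0.32 for Cenpe and −0.24 for Cenpf to 0.13 for Ccnb1 and 0.19 for Ube2c. No gene of the cell cycle lists reached 2-fold. The medians were 0.04 for cyclins and mitotic kinases, −0.04 for spindle motors, −0.01 for kinetochore genes, −0.11 for condensation and cohesion, 0.10 for cytokinesis and −0.12 for DNA replication. Among the larger departures in these lists were Mki67, at 457 CPM in control and 321 CPM in LTS mitotic cells (−0.50), Wee1, the kinase that holds Cdk1 inactive (0.45) and Kif18b (0.37). In the other tumour-like cells the ratios of LTS over control were −0.40 for Mki67, 0.06 for Wee1 and 0.11 for Kif18b.

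The gene at least 2-fold higher in LTS mitotic cells was Ttr, transthyretin, at 3.92 CPM in control and 24.6 CPM in LTS. It marks choroid plexus, and the 5 markers of that tissue summed to 4.70 and 25.9 CPM in mitotic cells, 17.9 and 38.0 CPM in the other tumour-like cells and 76.1 and 1271 CPM in barcodes with 1 to 100 UMIs, with Clic6 at 0 in the mitotic cells of both libraries. The part of free RNA in this value was not tested further, and with free RNA taken off no gene was at least 2-fold higher. By the same rule as before for naming genes, Chchd10, a mitochondrial protein, was at 39.3 and 68.4 CPM (0.73, and 0.26 in the other cells), with 12.3% of its LTS UMIs in 1 cell. Next came Dynlt1f (0.71 and 0.32 in the other cells), a member of a dynein light chain family with near-identical copies, Fosb (0.58 and 0.14), Ddit3, a stress transcription factor (0.56 and 0.10), and Gas2l3 (0.54 and 0.08). The Cdkn2a gene of the p16 and p19 inhibitors was at 60.4 and 88.0 CPM (0.51, and 0.38 in the other cells) and Mgp at 180 and 256 CPM (0.50 and 0.18, with 14.9% of LTS UMIs in 1 cell). Others were Irf2bp2, Tns2, Raph1 and the ferritin gene Ftl1, with ratios of 0.44 to 0.49.

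Genes lower in LTS mitotic cells were mostly lower in the other tumour-like cells as well. Pbld2 was at 561 CPM in control and 169 CPM in LTS mitotic cells (−1.70) and at 593 and 182 CPM in the others (−1.67). Snhg9, a noncoding host of a small nucleolar RNA, was at 137 and 41.1 CPM (−1.62, and −1.58 in the others), Mpv17l at −1.53 and −1.21, Dennd5b at −1.43 and −1.38 and the exocyst subunit Exoc1 at −1.19 and −1.30. In barcodes with 1 to 100 UMIs Pbld2 was at 759 and 369 CPM and Exoc1 at 310 and 190 CPM, lower in LTS too. Crabp1, a carrier of retinoic acid, was at 57.6 and 22.9 CPM in mitotic cells (−1.17) and at 45.8 and 32.1 CPM in the others (−0.45). The remaining genes at least 2-fold lower were Sag, Enah, Lhfpl4, Rep15, Gm26909, mt-Atp8 and the microglial genes Ctss and C1qb, and the microglia list was lower in LTS as given above. The choice of cells allowed at most 10 UMIs of C1qa, C1qb and C1qc per cell. This limit is stricter for the deeper LTS cells (median 50225.5 UMIs, against 26133.5 in control), so the C1qb ratio is not free of it. Named genes short of 2-fold included Apoe (−0.97), Taf1d (−0.76), Samhd1 (−0.76), the RNA helicase Ddx21 (−0.75) and Ifi202b (−0.71). Apoe was at 99.4 and 48.2 CPM in control and LTS mitotic cells, but at 1333 and 1781 CPM in barcodes with 1 to 100 UMIs. The part of free RNA and of the limits on host genes in the Apoe and Ctss ratios was not tested.

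**Figure D5:**
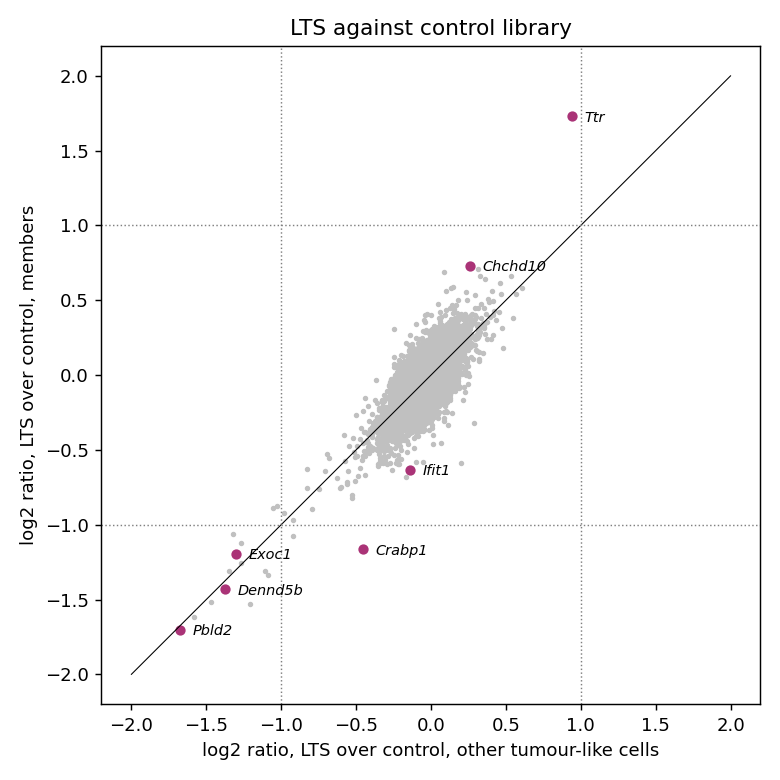
Log2 ratio of CPM in LTS over control for genes tested in both classes, in the other tumour-like cells (horizontal axis) and in mitotic cells (members, vertical axis), with a line of equal ratio and dotted lines at 2-fold. Pbld2, Dennd5b and Exoc1 are below −1 on both axes, and Crabp1 is at −0.45 on the horizontal and −1.17 on the vertical axis.

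Interferon response genes were lower in LTS mitotic cells for 11 of 12 tested, with a median of −0.40, beside −0.14 over 11 genes in the other cells. Over all genes, 42.1% were above 0 in mitotic cells and 40.4% in the others. Xaf1 had −0.67, Ifit1, which binds viral RNA, −0.63, and Bst2 −0.10, while Cxcl10, a chemokine drawn out by interferon, was higher (0.31). The difference was uneven over cells. The summed list had medians of 4.78 UMIs per 10,000 in control and 2.67 in LTS mitotic cells, with highest cells at 95.6 and 99.8. In the top 10% of their own library were 48 of 380 control (12.6%) and 12 of 130 LTS mitotic cells (9.23%). Both shares are near 10%, and since each top 10% is set within its library they do not compare the libraries. With the score threshold at the top 5% the list median was −0.0062. Matrix genes were higher in LTS for 10 of 12, with a median of 0.22 beside 0.06 in the other cells, led by Mgp (0.50) and Bgn, biglycan (0.40), with Col6a2 (−0.08) and Postn (−0.0038) lowest. Genes with Rpl or Rps symbols, which are mostly ribosomal protein genes but take in pseudogenes and S6 kinase genes, were higher for 72 of 87, with a median of 0.12 in mitotic and 0.14 in the other cells.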

How the data were processed

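Libraries of 3′ single-cell RNA (control and LTS, n = 1 each) were used. Whole-number UMI counts per gene and barcode were deposited unfiltered, from Cell Ranger 4 per the file headers, with the genome build mm10 per the submitters' processing notes. The members and gene lists were chosen with earlier results of these data known.

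Tumour-like cells had at least 10000 UMIs, at most 15% mitochondrial UMIs, at most 1 Ptprc, 10 C1qa, C1qb and C1qc and 2 Cldn5, Flt1 and Pecam1 UMIs, and at least 20 Vim UMIs. The upper 10% by score over both libraries were kept. Counts were summed per library and class (6634689 to 68512865 UMIs), scaled to CPM and compared as log2(CPM + 5) for genes of at least 20 CPM in 1 class. Shares have Clopper-Pearson intervals and folds exact conditional intervals on the counts. No doublet caller was run; leaving out cells above the 98th percentile of UMIs was an alternative. Barcodes with 1 to 100 UMIs served as free RNA.

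Genes named were the 8 scoring genes, list genes with the 2 largest and 2 smallest of each list, and outside the lists the 15 largest and smallest ratios shared by both libraries at 50 CPM or more. Between libraries the 12 largest and smallest were named, with a UMI in at least 10% of mitotic cells. Genes at least 2-fold apart outside this rule (Ttr, Sag, Enah, Lhfpl4, Rep15, Gm26909, mt-Atp8, C1qb) were chosen after their values were seen. Some genes that the rule would name are not reported here. Python 3.11.15, numpy 2.4.6, scipy 1.17.1, pandas 2.3.3 and matplotlib 3.10.9 were used, and the scripts were tested on simulated data. Promoters came from RefSeq and gene positions from GENCODE.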

Additional observations from a re-analysis of the deposited data

Results flagged for a closer look

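High mitosis scores were also found among the barcodes that met every condition but the endothelial limit. In the LTS library 121 of these 1040 barcodes (11.6%, 9.75 to 13.7%) scored at or above the threshold, and in the control library 127 of 1147 (11.1%, 9.31 to 13.0%). They lie outside the cells compared above, and whether they were tumour cells was not tested. Their median depth was 47824.5 UMIs in LTS and 24905 in control, against 37150 and 19936.5 in the cells kept.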

How the results depend on the processing

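In all, 187 results were recomputed under 14 alternatives, of which the endothelial limit per 10,000 UMIs was chosen after seeing the data. Of the values of single genes, 1493 stayed on their side of 2-fold, 17 passed it and 2 fell short of it. The spindle median ran from 1.27 to 1.66 in control and 1.58 to 1.87 in LTS. The 1 gene at least 2-fold higher in LTS mitotic cells became 4 with at least 20,000 UMIs per cell, 5 with the top 5%, 3 with no CPM minimum, 2 with cells weighed equally, and 0 with thinned scoring, free RNA taken off or a minimum of 100 CPM. That minimum, which tests fewer genes, gave 53 genes higher and 0 lower in mitotic cells of both libraries, and 5 lower in LTS. Genes lower in mitotic cells of both libraries were 3 with the top 20% and 11 with the top 5%. The DNA replication median in LTS was −0.15 with cells weighed equally, −0.22 with the top 20% and −0.20 without cells above the 98th percentile of UMIs. The matrix median in LTS was −0.13 with at least 20,000 UMIs, −0.23 with thinned scoring, −0.16 with no CPM minimum, −0.093 with the top 5% and −0.23 without the deepest cells, and in control −0.0089 with at least 20,000 UMIs. Histones turned to 0.094 in LTS and 0.041 in control with the top 20%, and noncoding RNAs to 0.025 and 0.030 with no CPM minimum. The share in LTS and control was 7.55% and 11.7% with at least 20,000 UMIs (ratio 0.647) and, by construction, 18.5% and 20.6% with the top 20% and 4.32% and 5.25% with the top 5%. With the scaled endothelial limit the share was 9.98% in LTS and 10% in control (ratio 0.998). The cause of the other changes was not tested. No paired analysis was possible because each group has 1 library.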

Other observations

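Energy metabolism differed little between mitotic and other tumour-like cells. Of 77 oxidative phosphorylation genes, 58 had ratios below 0 in both libraries, but the medians were −0.07 in control and −0.10 in LTS and none reached 2-fold. Ratios above 0 were found for 14 of the 77 in control and 13 in LTS, beside 51.3% and 49% over all genes. Genes with Rpl or Rps symbols (ribosomal protein genes, with some pseudogenes and S6 kinase genes) had medians of −0.02 and −0.04, and glycolysis and hypoxia genes of −0.02 and −0.07, with the hypoxia gene Ndrg1 lowest (−0.77 and −1.07). The 13 mitochondrially encoded genes had medians of −0.14 and −0.05.

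Antigen presentation genes of MHC class I had medians of 0.01 and −0.07 over 6 genes. Scx, a tendon transcription factor, had ratios of 0.35 and 0.54 and Crabp2 of −0.11 and −0.03. By these 2 genes together, 46 of 380 control (12.1%) and 20 of 130 LTS mitotic cells (15.4%) were in the top 10% of their library. The exact intervals of both shares include 10%, so no enrichment is shown. Klra4 had ratios of 0.40 and 0.60 and Pbld2 of −0.08 and −0.11.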
